A study of Bos taurus with 96 samples.

Results

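Kidney fat (Kid), the depot packed around the kidneys, was compared with omental fat (Omen), the fat carried by the omentum inside the abdominal cavity. All 12 arrays labelled as kidney fat and all 12 labelled as omental fat were used, 24 of the 96 arrays in the series, and they were taken by their labels alone. Each depot was represented by 4 arrays from Angus, 4 from Hereford and 4 from Wagyu x Angus steers, slaughtered at 26 months of age after 259 days in a feedlot; before that the steers had grazed pasture. The labels name no other treatment. RNA came from whole pieces of tissue dissected after slaughter, so each array averaged adipocytes with the vessels, nerves, stroma, immune cells and serosa around them. In such bulk samples fewer cells of a type and less RNA per cell cannot be told apart. Each array carried RNA from 1 sample, labelled in 1 colour. The labels do not say which Kid and Omen arrays came from the same steer, so the arrays were treated as independent and the p-values measure the spread between these arrays.

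Adipose depots are laid down in different parts of the embryo, and stromal cells and adipocytes keep a record of that position in the expression of homeobox genes, above all of the HOX clusters, whose order along the chromosome matches the body axis. Kidney fat lies behind the peritoneum, and in newborn ruminants it is the main site of brown fat, which burns fatty acids for heat and is later replaced by white fat. The omentum is a fold of peritoneum, covered by mesothelium (a thin epithelium that makes keratins, mesothelin and claudins), and it carries clusters of immune cells.

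A level is given throughout as the log2 signal of a probe minus the 75th percentile of its array, so that 0 marks a spot as bright as that percentile, and a difference is Kid minus Omen on this log2 scale, adjusted for breed. Adjusted p-values are from limma with Benjamini-Hochberg adjustment over all 34227 probes, and a probe past 0.05 is called. Adipocyte markers were present in both depots: all 18 adipocyte genes with a probe were above background on all 24 arrays, among them FABP4, the fatty acid carrier of adipocytes, whose difference was -0.15 (adjusted p = 0.404). None of the 5 kidney and none of the 11 adrenal gland markers with a probe was called, and the mean level of the 3 kidney markers with a value on every array was -3.59 to -2.08 in Kid and -3.19 to -2.46 in Omen.

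Some arrays, the slides and the scanning days bear on every result. The Kid and Omen arrays lay on 8 slides, and only slide 19 held both depots. The 75th percentile of the signal was 671 to 1668 in Kid and 859 to 1421 in Omen, and 92.6 to 97.1% of probes in Kid and 89.7 to 98.6% in Omen were above background. Of the Kid arrays, 5 were scanned on day 1, 6 on day 2 and 1 on day 3; of the Omen arrays, 2 were scanned on day 2 and 10 on day 3. The array labelled Kid Hereford at position 2 of slide 4 went against its label on several of the genes described here: HOXA10 stood at -7.67, inside the Omen range, while the other 11 Kid arrays stood between -1.72 and 0.43, and KERA stood at -2.38, above the highest other Kid array at -5.30. Its median correlation with the 12 intermuscular fat arrays (0.980) was above that with the other Kid arrays (0.971), and it shares its slide with intermuscular samples. The Kid Hereford array at position 1 of slide 21 had 12 of 18 macrophage markers above every other Kid array and the lowest PLIN1 level (2.89, against 4.02 to 5.18 in the others). The Omen Angus array at position 4 of slide 10 had 5528 outlier spots, which left 3390 of its probes without a value. Where the call of a named gene was lost without one of these 3 arrays, that value is given.

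The depots differed at 4139 probes, 12.1% of those tested, with 2163 probes higher in Kid (6.32%) and 1976 higher in Omen (5.77%). Differences towards Omen were larger: the median called difference was 0.42 (1.33-fold) among probes higher in Kid and -0.66 (1.58-fold) among probes higher in Omen, and past 1 on the log2 scale stood 156 probes of 86 named genes in Kid against 501 probes of 250 named genes in Omen. The share of called probes that were higher in Kid was 52.3%, and 29.6% when the authors' matrix values were scaled in the same way. With 1 probe for each of the 10653 named genes, 15% were called, 9.87% higher in Kid and 5.1% higher in Omen. With scan day as a block, 218 probes were called (0.637%), 125 higher in Kid and 93 in Omen. Of the 4139 probes, 4135 kept their sign with the block; their median difference in size was 0.51 without it and 0.52 with it, and the median standard error went from 0.13 to 0.21. Arrays of the same breed and scan day in both depots were few, 1 Kid and 2 Omen Angus arrays on day 2 and the same numbers on day 3, and the breed-adjusted differences within these days rest on those arrays alone: 3745 of the 4139 probes had the same sign within day 2 and 3367 within day 3. With no breed term, a choice made after seeing the data, 4056 had the same sign within day 2 (6 Kid against 2 Omen arrays) and 3946 within day 3 (1 Kid against 10 Omen arrays). Of the 84 called genes named by the rule, 23 were called with the scan day block and 58 with slide as a random block. Without the Kid Hereford array of slide 4 the count was 5395, without that of slide 21 it was 3836, and without the Omen Angus array of slide 10 it was 3902.

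At 36 probes (0.105%) the Kid and Omen arrays with a value did not overlap, 8 of them higher in Kid (0.0234%) and 28 in Omen (0.0818%). Of these, 29 were called with the scan day block. The number was 76 without the Kid Hereford array of slide 4, 48 without that of slide 21 and 54 without the Omen Angus array. The 32 named probes belong to 21 genes, of which 7 were higher in Kid (HOXA9, HOXC10, TPM2, AK5, EAF1, CCDC107 and C29H11orf98). Of the others, TF, A2M, TMEFF2, RPRM, SLIT2, SLC7A10, CLDN15, HOXA2, NTRK3, MEIS1, GADD45A and APBB2 were higher in Omen and well above background on all Omen arrays, and SOX9 and NKX2-3 were measured on 11 Omen arrays. The TPM2 probe was also measured on 11 Omen arrays.

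**Figure D1:**
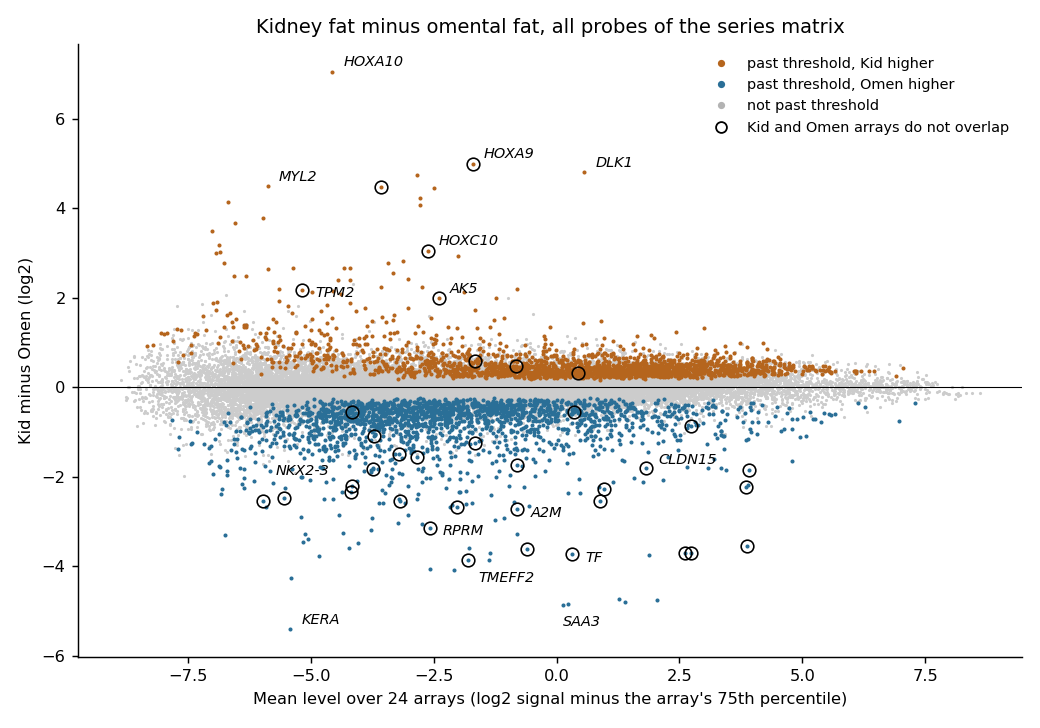
Each point is 1 probe: the horizontal axis is its mean level over the 24 arrays (log2 signal minus the 75th percentile of the array) and the vertical axis the Kid minus Omen difference (log2). Brown points are the 2163 called probes higher in Kid, blue points the 1976 higher in Omen, grey points the rest, and open circles the 36 probes whose arrays do not overlap, 28 of which lie below 0.

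HOXA10 and HOXA9, HOX genes of the posterior paralogue groups, had the largest fitted differences towards Kid of all probes with a gene name. HOXA9, which patterns the posterior trunk and hindlimb, stood at -0.99, 0.89 and 1.68 (lowest, median, highest) in Kid and at -6.02, -4.04 and -3.22 in Omen. No Omen array reached the lowest Kid array, and the lowest Kid array was the one from slide 4. The difference was 5.0 (SE 0.33, 32.0-fold, adjusted p = 6.2e-09), 4.95 with the scan day block (adjusted p = 0.00022), and both HOXA9 probes were called. HOXA10, its neighbour in the cluster, stood at -7.67, -0.27 and 0.43 in Kid and at -9.07, -8.38 and -6.34 in Omen, where it was above background on 1 of 12 arrays against 11 of 12 in Kid. Apart from the slide 4 array the depots were fully separated. The difference was 7.05 (SE 0.63, adjusted p = 3.05e-07), and 7.64 without that array (adjusted p = 3.1e-12). With the Omen arrays below background set at the lowest signal that passed as above it, HOXA10 was at least 55.5-fold higher in Kid.

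HOXC10, another posterior gene, followed the same order, with -3.12, -0.94 and -0.17 in Kid against -5.05, -4.16 and -3.59 in Omen. Its Kid and Omen arrays did not overlap, and the difference was 3.05 (SE 0.24, adjusted p = 2.87e-08). HOXD10, dim in both depots (above background on 10 Kid and 3 Omen arrays), differed by 1.39 (adjusted p = 0.0072). A pair of genes of lower paralogue number were also higher in Kid, HOXD4 by 1.35 (SE 0.19, adjusted p = 0.00013) and HOXC6 by 0.97 (SE 0.18, adjusted p = 0.0021). HOXA3, HOXB2, HOXD4 and HOXD10 were named after the values were seen.

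Some genes of the anterior end of the clusters were higher in Omen. HOXA2, a gene of the hindbrain and branchial arches, stood at -5.25, -3.43 and -2.80 in Kid and at -2.73, -2.09 and -1.13 in Omen. The arrays did not overlap, although the gap between the nearest arrays was small, and the difference was -1.56 (SE 0.24, adjusted p = 0.00046). The 5 highest Omen arrays for HOXA2 (-1.88 to -1.13, against -2.73 to -2.08 on the others) were those with the highest levels of mesothelial markers, described further on; the part of that level in the difference was not tested. HOXA3 (-0.74) and HOXB2 (-0.71) were called in the same direction. Of the 18 HOX genes with a probe, 9 were called (50%, against 15% of all named genes): of the 6 genes in paralogue groups 9 to 13, 4 were higher in Kid and HOXB9 (0.25) and HOXC13 (0.085) were not called, with a median difference of 2.22, and of the 12 in groups 1 to 8, 2 were higher in Kid and 3 in Omen, with a median of -0.34. For 1 probe per named gene the median was 0.077. The HOX genes called as higher in Omen numbered 5 without the Omen Angus array and 6 with the scaled matrix values, against 3 here. With the scan day block HOXA9, HOXA10, HOXC10 and HOXD4 were called.

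**Figure D2:**
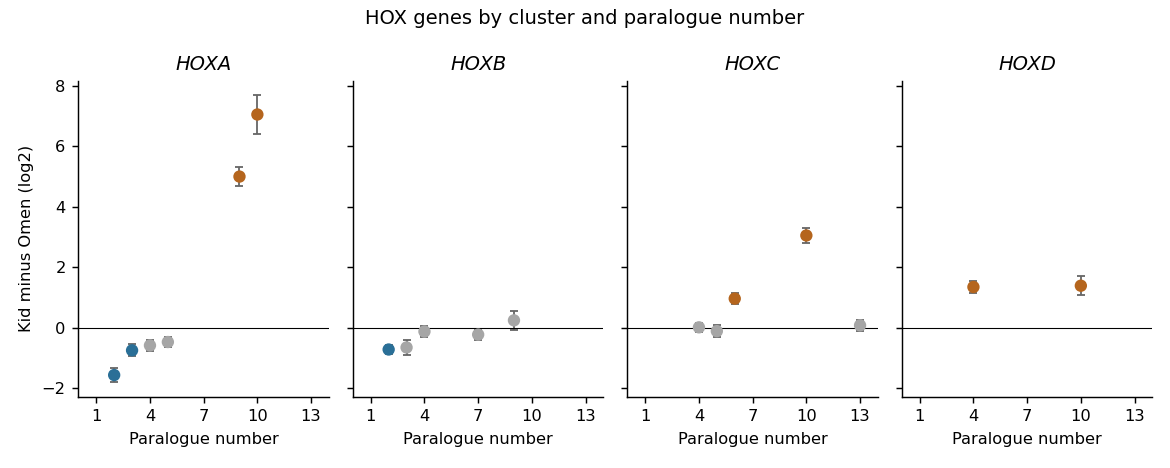
Kid minus Omen difference (log2, vertical axis) of the 18 HOX genes with a probe, by cluster (panels) and paralogue number (horizontal axis); bars are 1 standard error, brown marks genes called as higher in Kid, blue those higher in Omen and grey those not called. HOXA9 (5.0), HOXA10 (7.05) and HOXC10 (3.05) stand far above 0, and HOXA2 (-1.56), HOXA3 (-0.74) and HOXB2 (-0.71) below it.

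Of 30 other transcription factors of regional identity with a probe, 8 were higher in Omen and 2 in Kid (33.3% called, against 15% of all named genes), with a median difference of -0.40. NKX2-3, a homeobox factor of the spleen and gut wall, was the clearest, at -5.65, -5.15 and -5.00 in Kid and -3.93, -2.87 and -2.23 on the 11 Omen arrays that measured it. The Kid arrays lay in a narrow band below every Omen array, and the difference was -2.20 (SE 0.15, adjusted p = 9.02e-09), or -1.79 with the scan day block (adjusted p = 0.0012). MEIS1, a cofactor of HOX proteins, was higher in Omen at all 4 of its probes, and without overlap at 2 of them, by -1.24 (SE 0.14, adjusted p = 7.85e-06) and -1.10. NR2F1, an orphan nuclear receptor, differed by -1.18 (SE 0.15, adjusted p = 4.16e-05) and was called with the scan day block (-1.13, adjusted p = 0.036). GATA5, a factor of heart and gut mesoderm and endoderm, differed by -2.31 (adjusted p = 0.0238), with Kid at -4.46 to -1.94 and Omen at -3.32 to 2.09. For GATA5, 6 of the 12 Omen arrays were above every Kid array. EN1, the homeobox gene engrailed, was higher in Kid by 1.53 (adjusted p = 0.0045) and above background on 12 Kid and 5 Omen arrays. With the scan day block NKX2-3 and NR2F1 alone of these 30 genes were called at the 1 probe per gene counted.

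**Figure D3:**
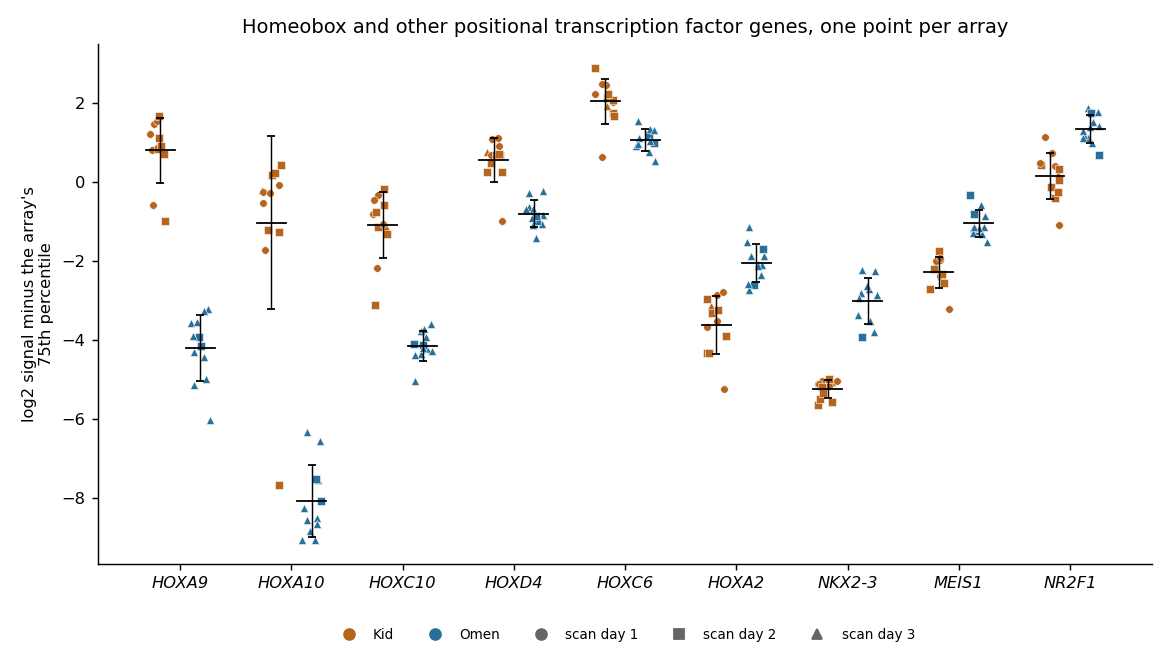
Levels (log2 signal minus the 75th percentile of the array, vertical axis) of 9 homeobox and nuclear receptor genes on each Kid (brown) and Omen (blue) array, at the probe with the largest difference; shapes give the scan day, the horizontal line the mean and the bar 1 SD. The Kid array at -7.67 for HOXA10 is the Hereford array of slide 4, and the NKX2-3 values of Kid (-5.65 to -5.00) lie in a narrow band below all Omen values.

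Several secreted proteins were higher in Omen. TF, transferrin, the iron carrier of plasma, stood at -3.10, -1.46 and -0.28 in Kid and at 1.12, 2.30 and 2.75 in Omen. The depots were separated at all 5 TF probes, and the difference was -3.73 (SE 0.27, 13.3-fold, adjusted p = 9.02e-09) and -3.78 with the scan day block (adjusted p = 0.00025). A2M, alpha-2-macroglobulin, a broad protease inhibitor, stood at -3.24, -2.22 and -1.13 in Kid and -0.43, 0.55 and 1.31 in Omen; its 5 probes all lacked overlap, and the difference at this probe was -2.73 (SE 0.26, 6.61-fold, adjusted p = 6.25e-07). SLIT2, the secreted guidance ligand of ROBO receptors, was at -4.96 to -2.08 in Kid and -1.90 to 0.30 in Omen, a difference of -2.67 (SE 0.28, adjusted p = 2.79e-06), and all 4 of its probes were called. PTN, the heparin-binding growth factor pleiotrophin, and EDN3, endothelin 3, named after their values were seen, were higher in Omen by -3.29 (adjusted p = 7.23e-05) and -3.19 (adjusted p = 0.000117), and both were called with the scan day block.

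TMEFF2, a membrane protein with follistatin-like domains, stood at -6.31, -3.86 and -1.76 in Kid and at -0.70, 0.16 and 1.25 in Omen. The lowest Omen array was above the highest Kid array, which was the one from slide 4, and the difference was -3.86 (SE 0.38, 14.5-fold, adjusted p = 1.11e-06). RPRM, a p53-induced inhibitor of the cell cycle, differed by -3.13 (SE 0.32, adjusted p = 1.83e-06), with Kid at -6.11 to -3.23 and Omen at -2.20 to 0.16. SLC7A10, a transporter of small neutral amino acids used as a marker of white adipocytes, was at -7.91, -6.73 and -6.32 in Kid, where 6 of 12 arrays were above background, and at -5.91, -4.16 and -1.87 in Omen. It differed by -2.48 (SE 0.36, adjusted p = 0.000194), but was not called with the scan day block (-2.30, adjusted p = 0.070). SOX9, the chondrocyte and progenitor factor, named after its values were seen, differed by -2.33 (SE 0.24, adjusted p = 3.52e-06). NTRK3, a neurotrophin receptor (-1.48), GADD45A, a stress-induced growth arrest protein (-0.86), and APBB2, an adaptor of the amyloid precursor protein (-0.54), were higher in Omen without overlap, by less, and were not called with the scan day block (adjusted p = 0.115, 0.091 and 0.280). C2CD4B, also named after its values were seen, differed by -3.74 (adjusted p = 1.11e-06).

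**Figure D4:**
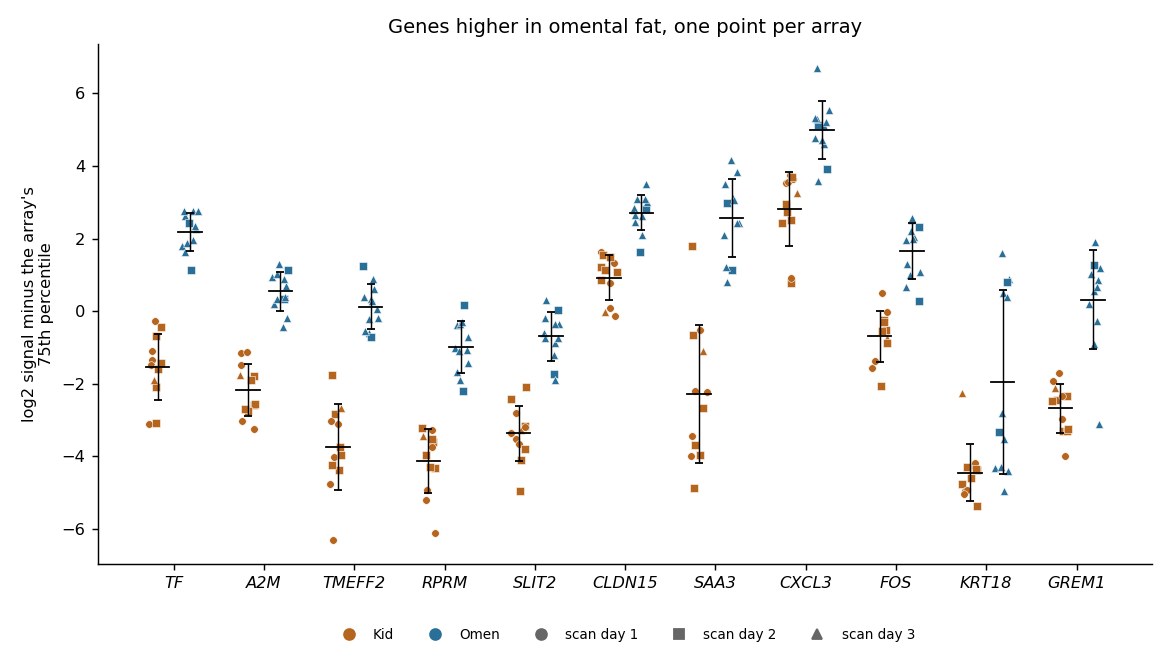
Levels (log2 signal minus the 75th percentile of the array, vertical axis) of 11 genes called as higher in omental fat, on each Kid (brown) and Omen (blue) array at the probe with the largest difference; shapes give the scan day, the horizontal line the mean and the bar 1 SD. TF, A2M, TMEFF2, RPRM, SLIT2 and CLDN15 do not overlap, whereas for KRT18 several Omen arrays lie among the Kid arrays.

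Outside the HOX clusters the genes higher in Kid without overlap differed by less. AK5, an adenylate kinase, which balances adenine nucleotides, stood at -2.18, -1.41 and -0.66 in Kid and at -4.68, -3.44 and -2.46 in Omen. Its difference was 1.99 (SE 0.24, adjusted p = 1.64e-05), and 1.96 with the scan day block (adjusted p = 0.027). EAF1, a partner of the ELL elongation factor, differed by 0.60 (adjusted p = 7.23e-05), CCDC107 by 0.48 (adjusted p = 0.000589) and C29H11orf98 by 0.33 (adjusted p = 0.00383); of these, EAF1 was called with the scan day block (adjusted p = 0.017), and CCDC107 (adjusted p = 0.057) and C29H11orf98 (adjusted p = 0.109) were not. DLK1, the preadipocyte factor that restrains adipogenesis, was higher in Kid at all 5 of its probes, from 1.32 at the brightest probe (SE 0.22, adjusted p = 0.000918) to 4.82 at another (SE 0.91, adjusted p = 0.00219). At the latter probe Kid stood at -1.15, 3.36 and 4.47 and Omen at -6.03, -2.66 and 2.76, so the depots overlapped. Without the slide 4 array, the lowest of the Kid arrays, this difference was 5.24 (adjusted p = 0.00062).

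KERA, keratocan, a proteoglycan of collagen-rich matrix, named after its values were seen, had a fitted difference of -5.40 (SE 0.72, adjusted p = 7.28e-05). It stood at -9.84, -8.87 and -2.38 in Kid, above background on 2 of 12 arrays, and at -4.58, -3.23 and 0.43 in Omen. With the Kid arrays below background set at the lowest signal that passed as above it, KERA was at least 12.6-fold higher in Omen. Without the slide 4 array, which held the highest Kid level, the depots did not overlap and the difference was -5.87 (adjusted p = 2.3e-06); with the scan day block it was -4.08 (adjusted p = 0.076). Here Kid stood apart from the other fat depots, whose mean levels were -0.21 ± 1.75 (SD, n = 12) in intermuscular, -0.53 ± 1.11 (n = 12) in subcutaneous and 0.43 ± 1.20 (n = 12) in intramuscular fat. At 33 of the 36 probes without overlap the Omen mean was farther than the Kid mean from the mean of the 36 arrays of these 3 depots. At 6 of them, probes of HOXA9, TMEFF2 and MEIS1, every Omen array lay outside the range of those 36 arrays, and at none did every Kid array. These probes were picked because every Kid array, the slide 4 array included, was separated from Omen. The counts were not made without that array. Over all probes, the correlation of an array with the intermuscular arrays had a median of 0.967 in Kid and 0.972 in Omen. For HOXA9 the intermuscular, subcutaneous and intramuscular means were -0.37 ± 0.69, 1.36 ± 0.24 and 0.47 ± 0.52 (n = 12 each), next to 0.80 ± 0.81 in Kid and -4.20 ± 0.84 in Omen. At the 5 TF probes the Omen mean was also the farther one, but not every Omen array lay outside that range, and the subcutaneous mean at the probe described above was 1.28 ± 1.39 (n = 12). These levels in other depots are given without a test.

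BMP signalling steers mesenchymal cells towards fat, bone or smooth muscle. Of 23 genes of the BMP, activin and TGF-beta family with a probe, 7 were higher in Omen and 1 in Kid (34.8% called, against 15% of all named genes), with a median difference of -0.35. The antagonist GREM1, gremlin, stood at -3.98, -2.46 and -1.70 in Kid and at -3.09, 0.66 and 1.90 in 11 Omen arrays. All but 1 of these Omen arrays were above every Kid array, and the difference was -2.95 (SE 0.42, adjusted p = 0.000171). The modulator BMPER differed by -2.49 (adjusted p = 0.00243; above background on 7 Kid arrays), the antagonist NOG, noggin, by -1.57 (adjusted p = 0.00673) and the ligand BMP4 by -1.37 (adjusted p = 0.000768). In the WNT pathway 4 of 16 genes were called (25%, against the same 15%). Higher in Omen were the ligand WNT6 (-1.08) and the inhibitors SOST (-1.90) and SFRP5 (-0.43), and the inhibitor DKK3 was higher in Kid (0.74). SFRP5 lost its call without the slide 21 array (-0.39, adjusted p = 0.068) and DKK3 without the Omen Angus array (0.65, adjusted p = 0.057). No gene of the BMP or WNT list was called with the scan day block.

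The serum amyloid genes SAA3 and SAA2, which encode acute phase proteins and were named after their values were seen, were higher in Omen, with differences of -4.86 (SE 0.57, adjusted p = 1.51e-05) and -4.73 (SE 0.59, adjusted p = 3e-05), with SAA3 at -4.86, -2.45 and 1.79 in Kid and 0.80, 2.70 and 4.16 in Omen. Both were called with the scan day block (-4.10, adjusted p = 0.045, and -4.31, adjusted p = 0.042); the 2 genes are close copies whose probes may share targets. Of 24 chemokine genes, 4 were higher in Omen and none in Kid (16.7% called, against 15% of all named genes in either direction and 5.1% higher in Omen; median -0.39): the neutrophil attractants CXCL3 (-2.18, adjusted p = 0.000114), CXCL2 (-1.92) and CXCL8 (-1.87), and the monocyte attractant CCL8 (-2.11). CXCL3 stood at 0.76, 3.10 and 3.76 in Kid and 3.59, 5.11 and 6.71 in Omen, so that the highest Kid array only just passed the lowest Omen array. The cytokine IL6, named after its values were seen, differed by -2.65 (adjusted p = 0.00677). Of 24 immediate early and heat shock genes, which respond within minutes to handling, stress or growth factors, 12 were higher in Omen and none in Kid (50% called), with a median of -0.71.

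All 12 of these calls were immediate early or related genes, among them FOS (-1.64 at the brightest of 3 probes, adjusted p = 0.000115), the RNA decay factor ZFP36 (-1.37), JUNB (-1.05) and the nuclear receptors NR4A2 (-1.16) and NR4A3 (-1.17); no heat shock gene was called. The mean level of this list was 1.99 to 2.65 in Kid and 1.95 to 3.65 in Omen, with 1.95 and 3.002 on the 2 Omen arrays of day 2 next to 2.17 to 2.65 on the 6 Kid arrays of that day, and with 2.47 to 3.65 on the 10 Omen arrays of day 3 next to 2.36 on the Kid array of that day. No chemokine or immediate early gene of these lists, at the 1 probe per gene counted, was called with the scan day block, although a dimmer FOS probe was (-2.31, adjusted p = 0.029). IL6 was not called with it (-1.27, adjusted p = 0.45). The order in which the depots were removed after slaughter is not in the labels, and its part in these differences was not tested.

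Of 10 mesothelial markers with a probe, 4 were higher in Omen and none in Kid (40% called, against 5.1% of all named genes higher in Omen), with a median of -1.48. CLDN15, a claudin of leaky epithelia, was the steady one, with Kid at -0.12, 1.12 and 1.62 and Omen at 1.63, 2.79 and 3.51 at the probe without overlap (difference -1.80, SE 0.21, adjusted p = 1.17e-05; -1.80 with the scan day block, adjusted p = 0.020). MSLN, mesothelin, stood at -8.14, -5.72 and -4.51 in Kid and at -6.09, -3.87 and 0.72 in Omen, a difference of -3.25 (SE 0.84, adjusted p = 0.0163). KRT18, a simple epithelial keratin, was at -5.36, -4.49 and -2.26 in Kid and -4.96, -3.06 and 1.60 in Omen (-2.49, SE 0.75, adjusted p = 0.0342), and CLDN1, a claudin of tight junctions, differed by -2.57 (adjusted p = 0.0229). For MSLN and KRT18 part of the Omen arrays lay among the Kid arrays, and MSLN, KRT18 and CLDN1 were not called with the scan day block (adjusted p = 0.189, 0.330 and 0.240).

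The mean level of the mesothelial markers was -1.33 to -0.34 in Kid, 1.72 to 2.06 on 5 Omen arrays and -0.48 to 0.28 on the other 7. These 5 arrays came from all 3 breeds and included 1 of the 2 Omen arrays scanned on day 2. They were also the 5 highest Omen arrays for several genes outside the marker list: the complement components C3 (-2.07, adjusted p = 0.0164) and C4A (-1.10, adjusted p = 0.0024) and the regulator CFI (-2.92, adjusted p = 0.00226), the basement membrane chains COL4A5 (-1.90, adjusted p = 0.00591) and COL4A6 (-1.95, adjusted p = 0.00919), podoplanin, PDPN (-2.02, adjusted p = 0.00589), GATA5, WNT6 and HOXA2. None of these genes was called with the scan day block. Of 27 complement genes 4 were called, all higher in Omen (14.8%, against 15% of all named genes in either direction and 5.1% higher in Omen). Over all 60 probes of these genes 21 were called as higher in Omen and none in Kid. C1QA, whose 5 highest Omen arrays were the same 5 arrays, had a difference of 0.41 and was not called. C3 stood at 1.02 to 5.16 in Omen and -0.83 to 1.99 in Kid, and on scan day 3 the difference between the only Kid array and the mean of the 10 Omen arrays was -1.24. Against the 2 Omen arrays of its own breed and day alone, both outside the 5, the same Kid array was higher by 0.52, and it was also the higher one for CFI, C4A, COL4A5, COL4A6, PDPN, GATA5, WNT6 and KRT18; with all 10 Omen arrays it was lower for each of these. The part of the mesothelial level in these differences was not tested. STRA6, the retinol transporter, had probes that disagreed: 0.77 at the brightest probe and -3.47 and -3.77 at the others, all 3 called, the latter highest on the same 5 arrays. KRT8, the partner of KRT18, named after its values were seen, differed by -4.08 and -3.30 at a pair of probes and by 0.06 at the third.

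**Figure D5:**
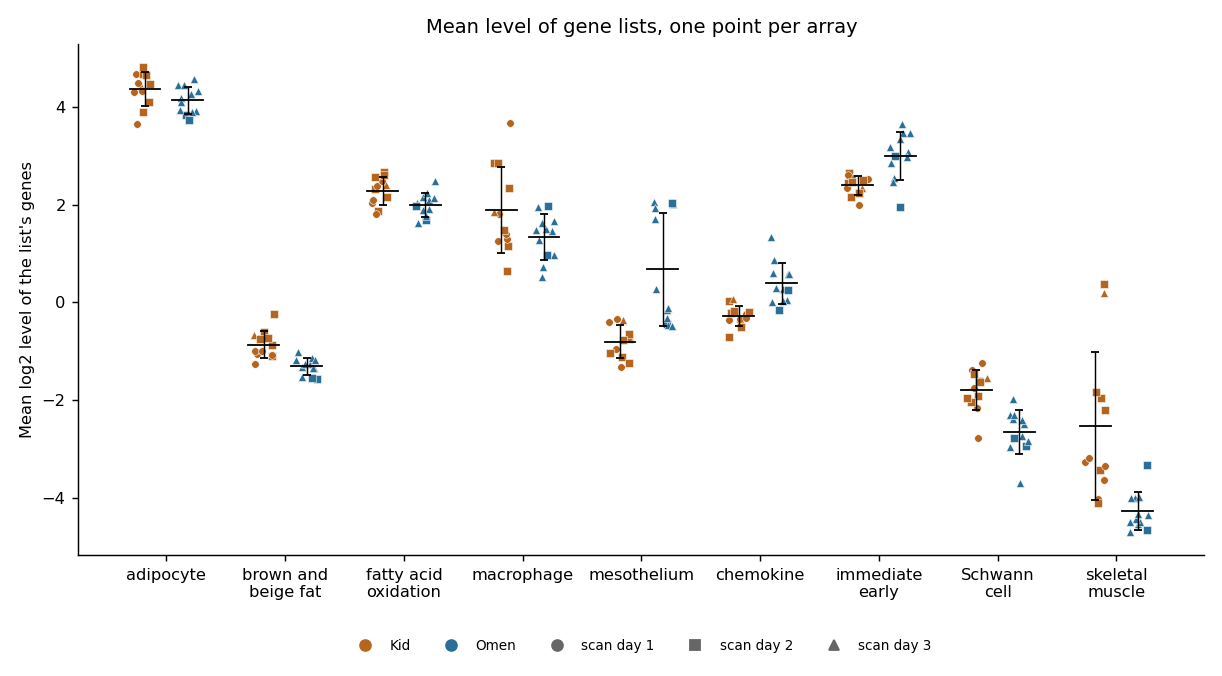
Mean log2 level (vertical axis) of the genes of 9 lists on each Kid (brown) and Omen (blue) array; shapes give the scan day, the horizontal line the mean and the bar 1 SD. The mesothelial level splits the Omen arrays into 5 at 1.72 to 2.06 and 7 at -0.48 to 0.28, the skeletal muscle level lifts 2 Kid arrays to 0.20 and 0.37, and the adipocyte level overlaps between the depots.

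Genes of fat storage gave few calls. Of 18 adipocyte genes only CD36, a fatty acid transporter, was called, higher in Kid by 0.37 (SE 0.11, adjusted p = 0.0248); of 20 fatty acid synthesis genes only PGD, an NADPH-producing enzyme, by 0.48 (adjusted p = 0.0375), a call lost without the slide 21 array (0.44, adjusted p = 0.059) and without the Omen Angus array (0.44, adjusted p = 0.058). SCD, the delta-9 desaturase, differed by 0.12 (adjusted p = 0.715). Of 14 triacylglycerol synthesis genes, 13 had a positive difference and the median was 0.45, but GPAT3, which adds the first acyl chain to glycerol phosphate, was the only call (0.76, adjusted p = 0.0455; 0.72 and adjusted p = 0.068 without the Omen Angus array). Without the slide 21 array 4 of these 14 genes were called, without the slide 4 array 3, and with mean centring or normexp 3, all higher in Kid. Among 26 lipolysis and lipid droplet genes, the beta-3 adrenergic receptor ADRB3 was higher in Kid (1.43). ANGPTL4, an inhibitor of lipoprotein lipase and 1 of 14 fatty acid uptake genes, was higher in Omen (-0.44, adjusted p = 0.0484), not called without the slide 4 array (-0.40, adjusted p = 0.065) or the slide 21 array (-0.42, adjusted p = 0.069). With all 24 arrays none of these storage lists held more calls than the 15% of all named genes, but without the slide 21 array 3 of 18 adipocyte genes were called and without the slide 4 array 3 of 14 uptake genes, and in the triacylglycerol list the share also passed it. None of the 5 called genes named here was called with the scan day block.

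In the lists of brown fat and of fatty acid oxidation all called genes were higher in Kid. Of 16 brown and beige fat genes, 4 were higher in Kid (25%, against 9.87% of all named genes in that direction), with a median of 0.31. ADRB3, the beta-3 receptor that starts thermogenesis, was at 0.17, 1.35 and 2.16 in Kid and -2.67, 0.28 and 1.42 in Omen (1.43, SE 0.44, adjusted p = 0.0361), and lost its call without the Omen Angus array (1.32, adjusted p = 0.057). PPARGC1A, the coactivator of mitochondrial biogenesis, stood at -3.03, -0.96 and 0.73 in Kid and at -3.00, -2.38 and -1.62 in Omen, and its difference was 1.33 (SE 0.29, 2.52-fold, adjusted p = 0.00599). The depots overlapped for both. TMEM26, a beige adipocyte marker above background on 10 Kid and 4 Omen arrays, differed by 1.40 (adjusted p = 0.0023), and EBF2, a factor of brown adipocyte identity, by 0.70 (adjusted p = 0.0188). UCP1, the uncoupling protein of brown fat, differed by 0.52 and was not called. Of 25 fatty acid oxidation genes, 22 had a positive difference and 5 were called, all higher in Kid (20%; median 0.29): PPARGC1A, the thiolase ACAA1 (0.52, adjusted p = 0.0043), the acyl-CoA dehydrogenases ACADM (0.48, adjusted p = 0.0212) and ACADVL (0.36), and ETFB, a subunit of the electron transfer flavoprotein (0.40, adjusted p = 0.013). With the scan day block ADRB3 (2.58, adjusted p = 0.057), PPARGC1A (1.74, adjusted p = 0.064) and ACADM (0.79, adjusted p = 0.066) were not called, and ACADVL was the only gene of both lists that was.

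Stromal markers were divided. Of 19 progenitor and fibroblast genes, DLK1, the adventitial marker PI16 (1.48, adjusted p = 0.0227) and the protease FAP (0.70, adjusted p = 0.0253) were higher in Kid, and CD34, a progenitor and endothelial antigen (-0.66, adjusted p = 0.0252), and COL15A1, a basement membrane collagen (-0.66, adjusted p = 0.00801), in Omen (26.3% called, against 15% of all named genes). Of 26 collagen genes, 21 had a negative difference and 4 were called (15.4%): COL15A1, COL4A5 and COL4A6 were higher in Omen and COL28A1, a collagen of nerve sheaths, in Kid. Without the Omen Angus array 7 collagen genes were higher in Omen. COL28A1 stood at -4.75, -2.99 and -2.20 in Kid against -6.18, -4.88 and -3.76 in Omen, a difference of 1.72 (SE 0.33, adjusted p = 0.0025). It was called with the scan day block (2.49, adjusted p = 0.027), as was DLK1; PI16, FAP, CD34 and the other called collagen genes were not. Vessel and immune markers gave few calls: of 17 endothelial genes PECAM1 was higher in Omen (-0.53, adjusted p = 0.0431; -0.44 and 0.064 without the slide 21 array), of 20 T and NK cell genes KLRK1 (-0.71, adjusted p = 0.0367), and none of 18 macrophage, 10 B and plasma cell, 19 interferon-stimulated or 12 smooth muscle genes was called. The macrophage median was 0.63 with no call; without the slide 4 array 2 macrophage genes were called, higher in Kid, with a median of 0.73, and without the slide 21 array none was, with a median of 0.41. The mean level of those markers was 0.64 to 3.68 in Kid, the highest being the slide 21 array, and 0.51 to 1.97 in Omen. Endothelial genes called as higher in Omen numbered 4 with quantile normalization, 3 with the scaled matrix values, 2 without the Omen Angus array and 0 with mean centring. For T and NK cell genes the number was 2 without the slide 21 array and with the scaled matrix values, and 0 with quantile normalization. PECAM1 and KLRK1 were not called with the scan day block, nor was CDX1. CDX1, an intestinal homeobox gene of the pancreas and gut list, was higher in Omen (-0.65, adjusted p = 0.0370; -0.63 and 0.052 without the slide 21 array).

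Of 12 Schwann cell genes, which mark nerve sheaths, 4 were higher in Kid and none in Omen (33.3%, against 9.87% of all named genes higher in Kid), with a median of 0.63 at 1 probe per gene. Over all 32 probes of these genes 5 were called and the median was -0.17. SOX10, the lineage factor of Schwann cells, stood at -5.80, -4.32 and -3.81 in Kid and at -8.49, -6.21 and -5.27 in Omen, above background there on 9 of 12 arrays. In Kid 10 of the 12 arrays were above the highest Omen array, and the difference was 1.83 (SE 0.33, adjusted p = 0.00176), or 2.56 with the scan day block (adjusted p = 0.027). A dimmer SOX10 probe differed by -0.10 and was not called (adjusted p = 0.883). CDH19, a cadherin of Schwann cells (2.25, adjusted p = 0.010), and GFAP, a filament of non-myelinating glia (1.20, adjusted p = 0.00243), were called too, and of the Schwann cell list SOX10 alone was called with the scan day block. The mean level of the 11 Schwann cell genes used was -2.79 to -1.24 in Kid and -3.71 to -1.99 in Omen, and 9 of 12 Kid arrays were above the highest Omen array.

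Of 13 skeletal muscle genes, all had a positive difference and 4 were called (30.8%, against 9.87% of all named genes higher in Kid; 1 was called with normexp and 2 with the scaled matrix values): MYL2, the slow regulatory light chain (4.50, adjusted p = 0.000458), the fast heavy chains MYH1 (3.80, adjusted p = 0.00589) and MYH2 (3.67, adjusted p = 0.00412), and the filament ruler NEB (1.66, adjusted p = 0.038). In Omen these were above background on 2, 2, 1 and 9 arrays, and with the arrays below background set at the lowest signal above it MYL2 was at least 8.14-fold, MYH1 at least 6.11-fold and MYH2 at least 4.0-fold higher in Kid. MYL1, a fast light chain, named after its values were seen, was below background on all Omen arrays and at least 4.37-fold higher in Kid. TPM2, beta-tropomyosin, without overlap at 1 of its 5 probes (2.17, adjusted p = 0.00426), belongs with them. The mean muscle level stood at 0.20 and 0.37 on 2 Kid arrays, 1 of which was the only Kid array scanned on day 3, at -4.11 to -1.83 on the other 10, and at -4.70 to -3.33 in Omen. Whether muscle or nerve was cut out along with the kidney fat was not tested.

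The depot difference was also compared between breeds. No probe was called in limma's F test of the depot by breed interaction, 1418 of 34227 had an unadjusted p under 0.05, and the lowest adjusted p was 0.968. Within the breeds alone, with 4 arrays against 4, the fit called 23 probes in Angus steers, 26 in Hereford steers and 123 in Wagyu x Angus steers. All 84 called genes named by the rule had the same sign in each of the breeds, which for those without overlap was fixed by their choice. Of the genes that the study names as extreme in some depot, HOXA10, DLK1 and TMEFF2 differed between Kid and Omen as described, while CLDN10, a claudin (-1.53, adjusted p = 0.234), and TDH, threonine dehydrogenase (-0.62, adjusted p = 0.397), were not called.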

How the data were processed

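RNA of 24 samples was measured on Agilent bovine 1-colour arrays with 4 arrays on a slide. Per the labels, RNA was extracted with Trizol and 50 ng was labelled. The authors scanned the arrays and deposited the Agilent Feature Extraction files (version 10.7.3.1), whose processed signal is an intensity after background subtraction. They also deposited a series matrix of log2 values. The study describes a mixed-model normalization, but the matrix values were not at a common level across arrays (array medians 7.58 to 8.96 in Kid and 8.03 to 8.70 in Omen). Per the file headers the arrays were scanned on 3 days. Here log2 of the deposited intensity minus the 75th percentile of each array was used, without control and outlier spots, for the 34227 probes of the matrix. Probe genes came from RefSeq accessions or a table of the study: 21445 probes (62.7%) were named, for 10653 genes.

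Groups came from the labels. limma 3.58.1 (R 4.3.3) fitted depot and breed to the 12 Kid and 12 Omen arrays; probes with a Benjamini-Hochberg adjusted p under 0.05 were called. Tested on simulated data, this comparison recovered 77% of probes changed by a log2 value of 1 and 99% of those changed by 2, with 10 false calls among the unchanged probes. The simulated noise was independent between arrays, with no scan day or slide effect, so it does not measure errors from these. Named genes were up to 15 per direction whose arrays did not overlap (1 probe per gene), up to 4 called genes with the largest difference plus the gene with the highest level from each of 31 lists, and the genes that the study names as extreme; other genes, also ACADVL, JUNB, PLIN1, UCP1, HOXB9 and HOXC13, were named after their values were seen. Lists are described by 1 probe per gene (the highest mean level), with no set test. Some called genes of the lists are counted but not reported here by name. The comparison and the lists were chosen with earlier results of these data known. Precision is limited by the number of arrays. A fold written as "at least" sets the mean of the brighter depot against the dimmer one with each of its arrays at the higher of the probe's own signal and the lowest signal that passed as above background.

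Replicate numbers in the labels equal the position of the array on its slide and repeat within a depot, so they do not pair samples. Deviations of Kid and Omen arrays with the same number correlated by a median of 0.0075 (34 pairs), those with different numbers by 0.0037 (110 pairs). These pairs were not matched by breed, so the correlations cannot tell whether arrays share a steer. Alternatives were other scalings and backgrounds (normexp with an offset of 50, run on the median spot signal), the matrix values, other probe sets, the methods' t-test, no breed term, blocks for scan day, slide and replicate number, single days (with breed, and without it, chosen after seeing the data), single breeds, and leaving out 3 arrays that stood apart (chosen after seeing the data).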

Additional observations from a re-analysis of the deposited data

How the results depend on the processing

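The count of 4139 called probes stayed within 1.5 times under quantile normalization (4067), mean centring (3750), normexp (3715), scaled matrix values (5088) and all non-control probes (3860). It also did with a background filter (4192), no breed term (4150) and the replicate block (4043, and 79 of the 84 called named genes). The methods' t-test called 4254 probes after adjustment, and 9656 at an unadjusted p under 0.05. The count was 1431 with the matrix values as deposited, 6498 with the spread from all 60 fat arrays, 1558 with slide as a random block, 218 with scan day as a block, 7195 with that block over 96 arrays, 0 within day 2 (1874 at an unadjusted p under 0.05) and 36 within day 3 (each breed-adjusted, 1 Kid against 2 Omen Angus arrays), and 59 and 61 within these days with no breed term (chosen after seeing the data), each with fewer or more arrays or another spread. Within breeds it was 23 (Angus), 26 (Hereford) and 123 (Wagyu x Angus).

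Of the 84 called named genes, 23 were called with the scan day block, 0 within day 2, 4 within day 3 (4 and 12 with no breed term), and 6, 4 and 16 within the breeds in the same order; all 84 had the same sign with the block, 81 within day 2 and 70 within day 3 (82 and 83 with no breed term). The lists held 89 called genes, 196 called probes when every named probe was counted, and 16 called genes with the scan day block. All 89 kept their sign under quantile, mean, normexp and scaled matrix values. The scaled matrix values moved the median of all probes from 0.016 to -0.091 and the share of called probes higher in Kid from 52.3% to 29.6%.

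Against 2 Omen Angus arrays, the Kid Angus array of day 2 had the opposite sign for NR4A2 (0.13), NR4A3 (0.75) and KLRK1 (0.066), and that of day 3 for GATA5 (0.77), KRT18 (2.05), WNT6 (0.46), CFI (0.12), C3 (0.52), C4A (0.048), TMEM26 (-0.099), ETFB (-0.040), CD36 (-0.11), COL4A5 (0.48), COL4A6 (0.58), PDPN (0.37), CDX1 (0.17) and IL6 (1.98). With no breed term, the sign turned for NR4A3 (0.066) and ANGPTL4 (0.038) within day 2 and for IL6 (0.12) within day 3. STRA6 at its brightest probe also turned within day 3 (-0.39, and -0.32 with no breed term). An arm of 1 array carries no spread of its own, and the cause was not tested.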
